A study of Arabidopsis thaliana with 6 samples.

Results

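The serine carboxypeptidase-like (SCPL) genes of Arabidopsis were described in suspension cells with and without induction of ATHB8. The members were chosen by name, as the genes whose symbol is SCPL followed by a number and that have a row of their own on the array. This gave 32 genes among the 16550 named genes of the array. RefSeq's gene table lists 51 genes of the family, so 19 have no row under their own name and were not analysed here. SCPL50 has 2 rows of its own, and the row with the higher mean was used. One further row names SCPL27 together with a second gene and was left aside.

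Induced cells had received 5 µM estrogen for 24 h, and uninduced cells were kept for the same 24 h without it. Both groups are transformed cells labelled Alex, which carry a fusion of ATHB8 to green fluorescent protein (ATHB8-GFP) under an estrogen-inducible promoter and grew in suspension in the dark. The labels do not say whether they are 1 clone. The study asked which genes lie downstream of ATHB8, a homeodomain leucine zipper transcription factor of developing vascular tissue. Each group has 3 arrays, and total RNA was measured as log2 signal on a whole-transcript array. Cells without the fusion were not analysed here, so an effect of estrogen itself and one of ATHB8-GFP cannot be told apart.

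SCPL proteins share a fold and a catalytic serine with the carboxypeptidases, which cut single amino acids from the C-terminal end of proteins in the vacuole or outside the cell. Some members have become acyltransferases, which move an acyl group from a glucose ester to another small molecule instead of cutting a peptide. The best known are SNG1 (SCPL8) and SNG2 (SCPL19), which make sinapate esters of leaves and seeds. BRS1 (SCPL24), a secreted carboxypeptidase, was found because its overproduction suppresses a mutation in the brassinosteroid receptor. None of these 3 genes is among the members with a row of their own.

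Both replicate 1 arrays stood apart from the other 4. Their median log2 signal over all rows was 5.95, against 5.80 to 5.84 in the other arrays, and they held the same value as each other in 12229 of 38408 rows (31.8%) and in 10 of the 32 SCPL rows, which were those of SCPL15, SCPL25, SCPL27, SCPL30, SCPL32, SCPL33, SCPL38, SCPL39, SCPL41 and SCPL47. For these 10 genes the difference rests on replicates 2 and 3. ATHB8 has no row under its name, so the induction itself could not be read from the array. Of 23 marker genes for photosynthesis, seed storage, xylem, phloem, root hairs and pollen, 3 have a row of their own (EXPA7, VGD1 and AT1G29140), and their uninduced log2 means lay between 2.48 and 4.53, below the median row. Suspension cells have no defining marker of their own on that list.

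In uninduced cells the SCPL genes covered most of the range of the array. Their log2 means ran from 1.95 for SCPL31 to 12.24 for SCPL48, with a median of 4.17, against 5.84 for the median over all rows. Of the 32 genes, 13 lay at or above the median row, 9 of them at or above the 75th percentile, and 15 lay below the 25th percentile. The SD over 3 arrays had a median of 0.16 in induced and 0.17 in uninduced cells among the 13 genes at or above the median row, and of 0.24 and 0.22 among the 19 genes below it. Signals of different rows also depend on their probes, and no background level was analysed here, so a low signal is not shown to be above background and the order of signals is not an order of transcript amounts.

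**Figure D1:**
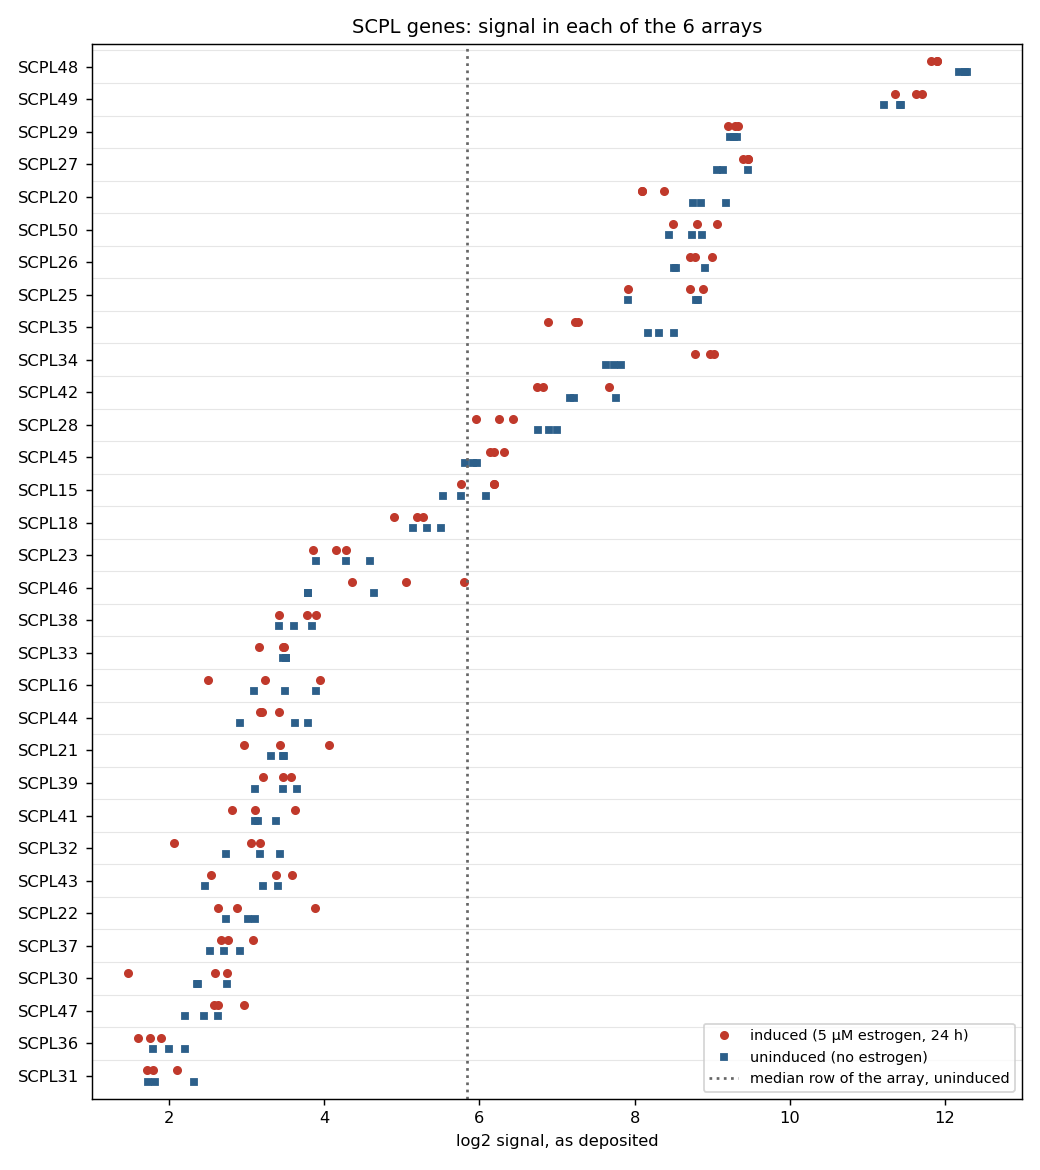
Log2 signal (horizontal axis, as deposited) of 32 SCPL genes in 3 induced arrays (red circles) and 3 uninduced arrays (blue squares), sorted by the uninduced mean, with the median row of the array as a dotted line. The points of most genes above the dotted line lie closer together than those below it, with SCPL25 and SCPL42 as exceptions, and SCPL34 and SCPL35 show the widest gaps between groups that do not overlap.

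SCPL48 and SCPL49 had the strongest signals. RefSeq also names SCPL49 carboxypeptidase Y, after the vacuolar protease of yeast. SCPL48 (AT3G45010) read 11.82, 11.90 and 11.89 in the induced arrays 1, 2 and 3, against 12.19, 12.26 and 12.29 in the uninduced arrays, at percentile 99.0 of all rows. SCPL49 (AT3G10410) read 11.35, 11.70 and 11.62 in the induced arrays, against 11.21, 11.43 and 11.42 in the uninduced arrays, at percentile 97.1. The groups of SCPL48 did not overlap, with all induced arrays lower, while those of SCPL49 did. Next in signal were SCPL29 (AT4G30810) with 9.34, 9.20 and 9.29 in the induced arrays and 9.32, 9.23 and 9.28 in the uninduced arrays, and SCPL27 (AT3G07990) with 9.46, 9.47 and 9.39 in the induced arrays and 9.46, 9.06 and 9.14 in the uninduced arrays. The groups overlapped in both genes, and SCPL29 had the smallest difference of the family, 0.00093 ± 0.10 (log2, SE, n = 3 per group).

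After induction 1 SCPL gene rose and 1 fell. SCPL34 (AT5G23210) rose 2.28-fold and SCPL35 (AT5G08260) fell to 0.436 times its uninduced level. Both are grouped by their number with the carboxypeptidase-type clades of the family, as are 29 of the 32 members. Over all 38408 rows 0.961% were called in limma at an adjusted p under 0.05, 0.633% higher and 0.328% lower, and over rows at or above the median uninduced signal, where both genes lie, 1.27% were called. Over named genes it was 1.13%. The called members are 2 of 32 (6.25%), a share that rests on 2 genes. In RNA from whole cultures, fewer cells with a transcript and less of it per cell cannot be told apart.

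SCPL34 read 8.78, 9.02 and 8.97 in the induced arrays, against 7.73, 7.63 and 7.83 in the uninduced arrays. Every induced array lay above every uninduced one by more than the range within either group. The means were 8.92 ± 0.13 in induced cells and 7.73 ± 0.10 in uninduced cells (SD, n = 3 each), a difference of 1.19 ± 0.12 on the log2 scale (SE; limma adjusted p = 0.015). The same-numbered pairs 1, 2 and 3 differed by 1.04, 1.39 and 1.14. With the replicate number as a block the adjusted p was 0.0517, a fit that called 0.63% of all rows and, of the SCPL genes, SCPL35 alone. In replicates 2 and 3 alone the adjusted p was 0.0849 at a difference of 1.26. Leaving out 1 array kept the call without induced replicate 1 (adjusted p = 0.035) and ended it without induced replicate 2 (0.116) or 3 (0.104) or uninduced replicate 1 (0.0589), 2 (0.108) or 3 (0.0844), at differences between 1.14 and 1.26.

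SCPL35 read 6.89, 7.23 and 7.28 in the induced arrays, against 8.17, 8.32 and 8.50 in the uninduced arrays. The highest induced array lay well below the lowest uninduced one, so the groups did not overlap. The means were 7.13 ± 0.21 in induced cells and 8.33 ± 0.17 in uninduced cells (SD, n = 3 each), a difference of -1.20 ± 0.16 on the log2 scale (SE; limma adjusted p = 0.0337). The same-numbered pairs differed by -1.28, -1.09 and -1.23, and with the replicate block the call held (adjusted p = 0.0383). It ended in replicates 2 and 3 alone (0.0924), with quantile normalization (0.0633) and with each array's median subtracted (0.0579). It also ended without each array in turn, with adjusted p between 0.073 and 0.172 and differences between -1.28 and -1.08. Leaving out 1 array lowered the calls over all rows too, to between 48 and 167 of 38408, against 369 with all arrays.

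**Figure D2:**
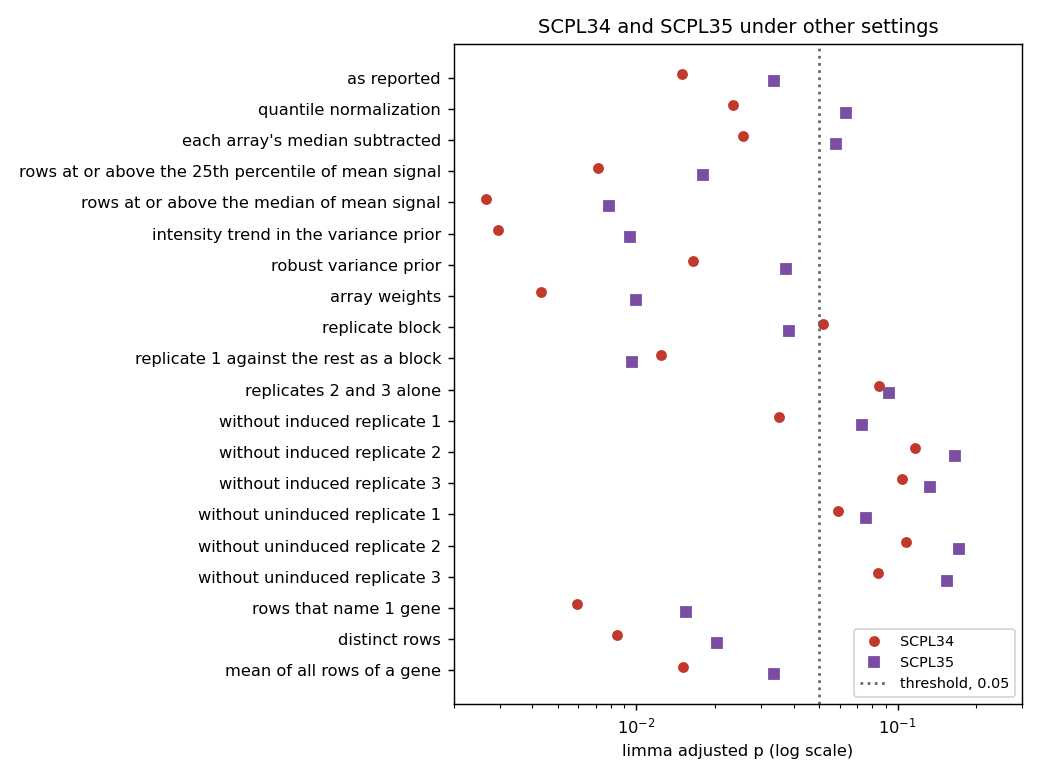
Limma adjusted p (horizontal log axis) of SCPL34 (red circles) and SCPL35 (purple squares) under the reported setting and each alternative, with the threshold of 0.05 as a dotted line. Fits with fewer arrays lie at or to the right of the line, apart from SCPL34 without induced replicate 1, while filters, priors and array weights keep both genes to its left.

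A further 4 SCPL genes had groups that did not overlap without passing the test, 3 of them lower in induced cells. Groups that did not overlap were found in 6 of 32 SCPL genes (18.8%), against 12.2% of all rows. These 6 genes were also the members with an unadjusted p under 0.05 (18.8%), against 8.48% of all rows. All 6 lay at or above the median row in uninduced cells, as did 13 of the 32 members. Over all rows in that range, 17.8% had groups that did not overlap and 10.8% an unadjusted p under 0.05. All 6 are of the carboxypeptidase-type number range, which holds 29 of the 32 members.

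SCPL20 (AT4G12910) read 8.38, 8.09 and 8.09 in the induced arrays, against 9.18, 8.85 and 8.76 in the uninduced arrays. The replicate 1 array was the highest of each group, and the pairs differed by much the same amount, -0.81, -0.76 and -0.66. The difference was -0.74 ± 0.16 (log2, SE, n = 3 per group; limma adjusted p = 0.132). SCPL20 passed in 3 of 19 alternatives. These were array weights (0.0356), rows at or above the median of mean signal (0.0407) and a block that set the replicate 1 arrays apart (0.0179). Those fits called 2.54%, 4.31% and 2.88% of the rows tested. It did not pass with the replicate block (0.0627), in replicates 2 and 3 alone (0.133) or without each array in turn (0.158 to 0.461).

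SCPL28 (AT2G35770) read 6.43, 6.26 and 5.96 in the induced arrays, against 6.90, 6.75 and 7.003 in the uninduced arrays. The difference was -0.67 ± 0.16 (SE; limma adjusted p = 0.171), and pair 3, at -1.04, differed more than pairs 1 and 2, at -0.47 and -0.49. SCPL26 (AT2G35780), the next protein-coding gene along the chromosome in RefSeq's table, lay at 0.18 ± 0.15 (SE; adjusted p = 1.0). These neighbours therefore lay on opposite sides of 0, and neither passed the test.

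SCPL48 differed by -0.37 ± 0.10 on the log2 scale (SE; limma adjusted p = 0.237), with pairs at -0.36, -0.35 and -0.39. The spread within its groups was small, 0.043 in induced and 0.052 in uninduced cells (SD, n = 3 each). SCPL48 passed in 1 of 19 alternatives, with an intensity trend in the variance prior (adjusted p = 0.0317). That fit called 1.94% of all rows. SCPL45 (AT1G28110) read 6.14, 6.32 and 6.19 in the induced arrays, against 5.91, 5.96 and 5.81 in the uninduced arrays. It was the only SCPL gene besides SCPL34 with all induced arrays above all uninduced ones, at a difference of 0.32 ± 0.11 (SE; adjusted p = 0.425).

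**Figure D3:**
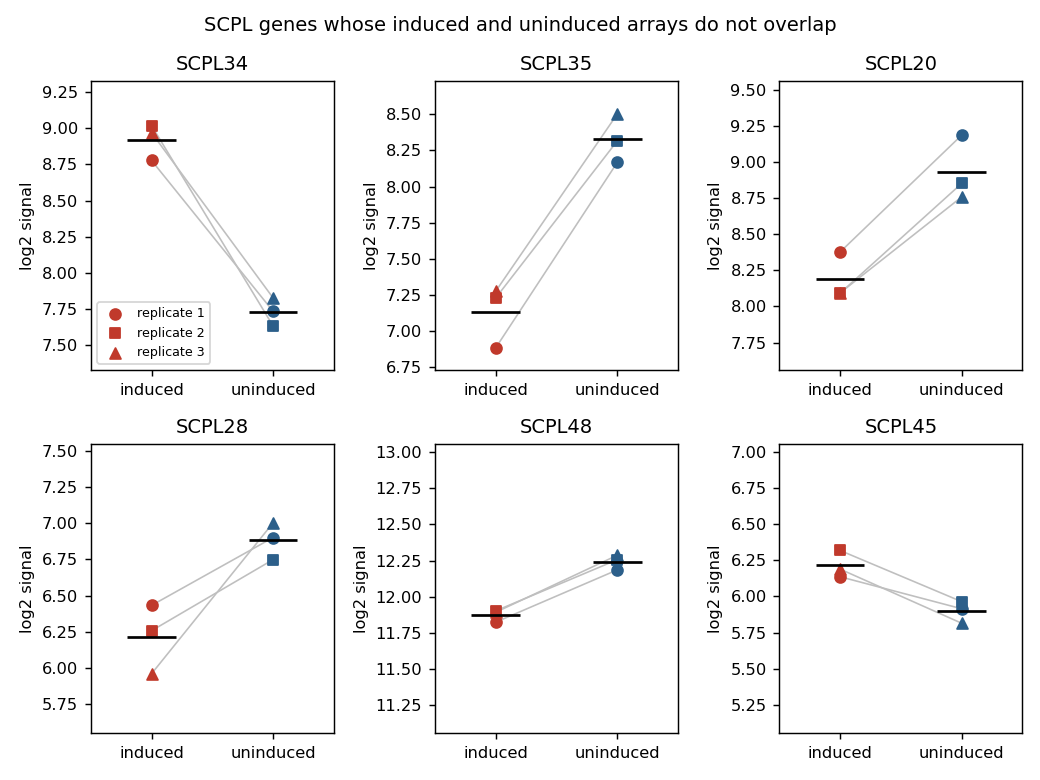
Log2 signal (vertical axes, each spanning the same range) of the 6 SCPL genes whose induced (red, left) and uninduced (blue, right) arrays do not overlap. Marker shapes stand for replicates 1, 2 and 3, grey lines join same-numbered arrays and black bars are group means; SCPL34 and SCPL45 slope downward to the uninduced side and SCPL35, SCPL20, SCPL28 and SCPL48 upward.

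SCPL46 (AT2G33530) had the third largest difference of the family with a wide spread. It read 5.80, 5.06 and 4.36 in the induced arrays, against 4.64, 3.80 and 3.79 in the uninduced arrays. The lowest induced array lay below the highest uninduced one, so the groups overlapped, although each pair lay higher in induced cells, by 1.16, 1.26 and 0.57. The difference was 0.997 ± 0.41 (SE; limma adjusted p = 0.592, and 0.121 with the replicate block). It was 0.633 without induced replicate 1, where SCPL20 at -0.84 and SCPL28 at -0.78 differed more, and up to 1.35 without 1 of the other arrays. SCPL47 (AT5G22980), with uninduced signal at percentile 6.60 of all rows, differed by 0.30 ± 0.17 (adjusted p = 0.825), and both replicate 1 arrays read 2.63. SCPL27 and SCPL49 differed by 0.22 ± 0.14 (adjusted p = 0.894) and 0.20 ± 0.14 (0.939).

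**Figure D4:**
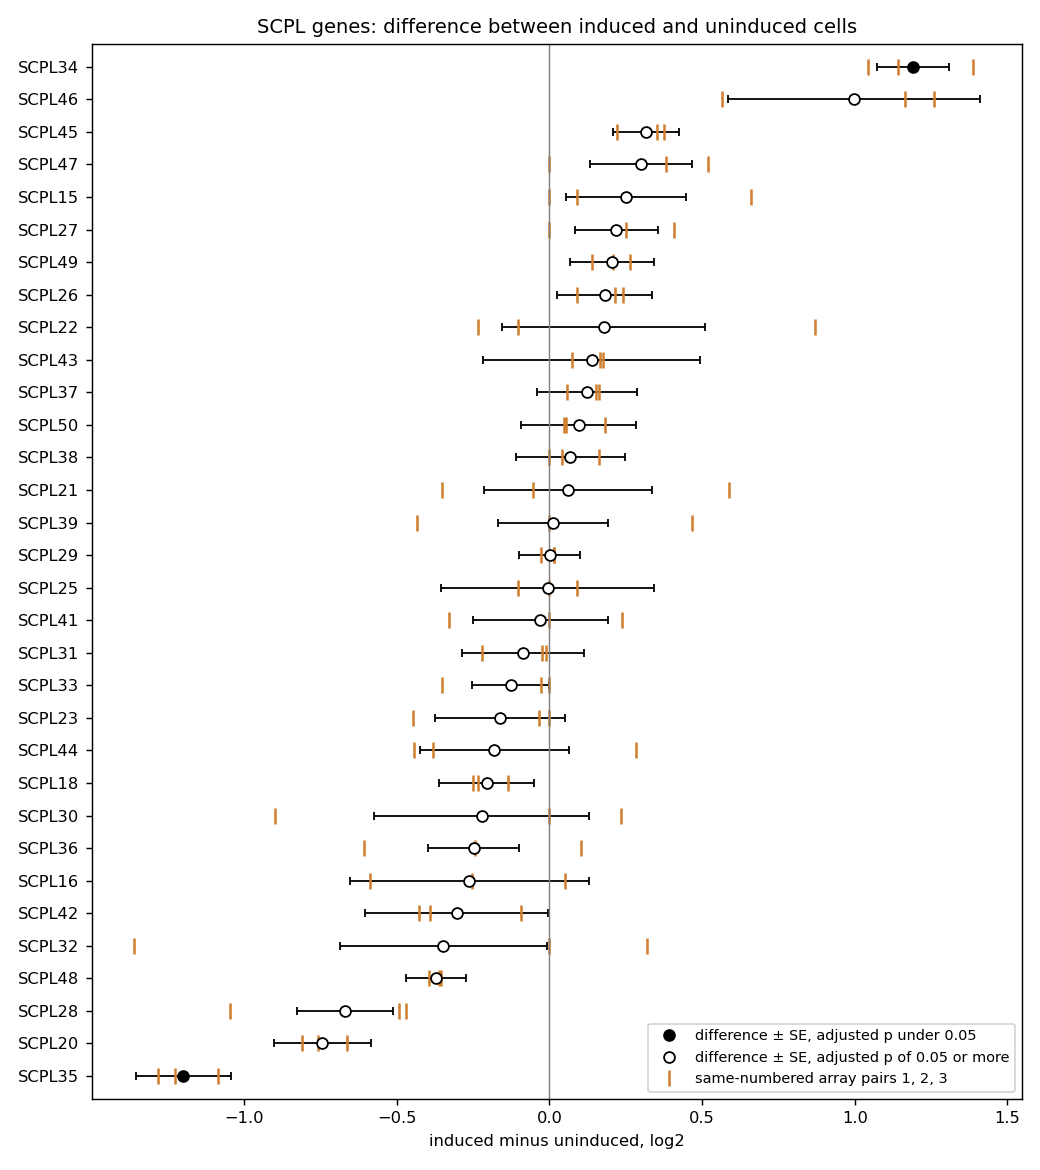
Induced minus uninduced log2 signal (horizontal axis) of 32 SCPL genes, as the limma difference with its SE (circles, filled where the adjusted p is under 0.05) and as the 3 same-numbered array pairs (orange ticks). SCPL34 at 1.19 and SCPL35 at -1.20 stand at the ends, with SCPL46, SCPL20 and SCPL28 next in size.

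The other 21 SCPL genes had differences from -0.35 (SCPL32) to 0.25 (SCPL15), with limma adjusted p between 0.882 and 1.0. Of these 0 were called, 0 had an unadjusted p under 0.05, and 0 had groups that did not overlap. In 19 of the 21 the difference was under 1.2-fold in either direction. Their spread was often as large as the difference. SCPL16 (AT3G12220) read 3.94, 3.24 and 2.50 in the induced arrays, against 3.89, 3.49 and 3.09 in the uninduced arrays, and SCPL30 (AT4G15100) read 2.75, 1.47 and 2.59 in the induced arrays, against 2.75, 2.37 and 2.36 in the uninduced arrays. In both genes the lowest value was an induced array and the replicate 1 arrays of the groups were nearly or exactly equal. In SCPL25 (AT3G02110) and SCPL42 (AT5G42240) the replicate 1 arrays stood apart from the other 4. SCPL25 read 7.92 in both replicate 1 arrays and 8.72 to 8.88 in the other 4. SCPL42 read 7.67, 6.74 and 6.82 in the induced arrays, against 7.76, 7.16 and 7.21 in the uninduced arrays. Each of its same-numbered pairs lay lower in induced cells, with differences of -0.093, -0.43 and -0.39, and limma gave a difference of -0.30 ± 0.30 (SE, n = 3 per group; limma adjusted p = 1.0).

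Over the family the differences were balanced. Of the 32 genes 16 lay higher and 16 lower in induced cells, with a median difference of -0.0017 on the log2 scale, against -0.0070 over all rows. The median size of the difference, whatever its sign, was 0.20 for the SCPL genes and 0.12 over all rows. Among the 13 genes at or above the median row it was 0.30, against 0.10 for all rows in that range. Among the 19 genes below the median row it was 0.18, against 0.15 for all rows in that range. Both called members lie at or above the median row. The difference kept one sign in all 3 same-numbered pairs in 16 of 32 genes, against 30.8% of all rows, while the 10 genes with equal replicate 1 values could not do so. At or above the median row 10 of 13 members kept one sign, against 43.5% of all rows in that range. Below the median row 6 of 19 members did, against 18.1% of all rows in that range. Replicates 2 and 3 were not shown to pair by number.

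**Figure D5:**
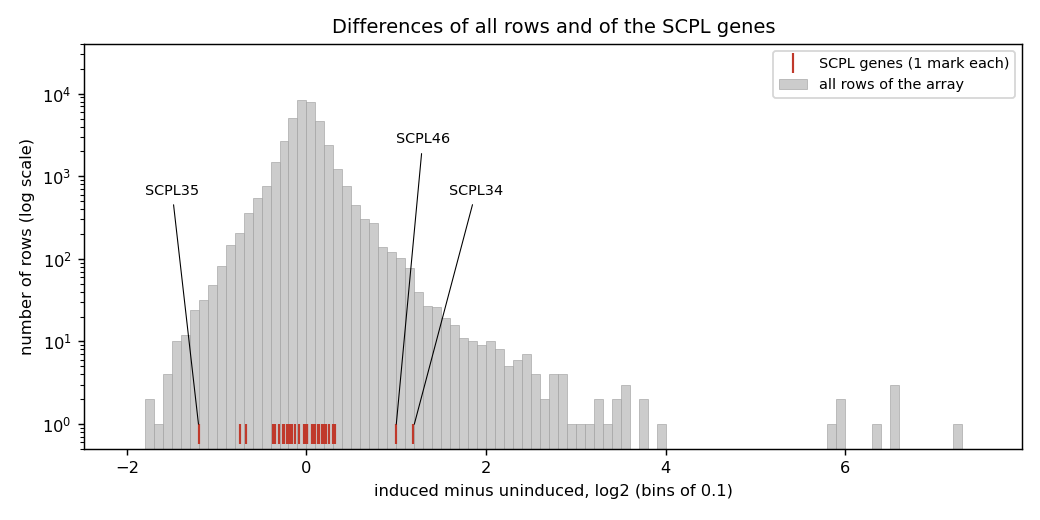
Number of rows (vertical log axis) by induced minus uninduced log2 difference in bins of 0.1 for all 38408 rows (grey bars), with 1 red mark for each of 32 SCPL genes. The marks spread on both sides of 0, with SCPL35 the lowest at -1.20 and SCPL34 the highest at 1.19, short of the rows that reach 7.22.

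The array covers the 2 parts of the family unevenly under its own names. Of the 19 genes numbered SCPL1 to SCPL19, the range that holds the known acyltransferases, 3 have a row of their own, namely SCPL15, SCPL16 and SCPL18. Their uninduced log2 means were 5.79, 3.49 and 5.32, all below the median row, and their differences were 0.25 ± 0.20, -0.26 ± 0.39 and -0.21 ± 0.15 (SE, n = 3 per group). In limma 0 of the 3 were called and 0 had an unadjusted p under 0.05. Of the 32 genes numbered from SCPL20 upward 29 were measured, of which 1 rose, 1 fell and 27 did not pass. No test was made between these number ranges.

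Several SCPL genes stand side by side in the genome, and neighbours lay on both sides of 0 here. SCPL36, SCPL37 and SCPL39 follow each other in RefSeq's table with no other protein-coding gene between them. Their uninduced log2 means were 1.996, 2.71 and 3.41, and their differences -0.25 ± 0.15, 0.12 ± 0.16 and 0.01 ± 0.18 (SE, n = 3 per group). SCPL22 and SCPL23, neighbours as well, differed by 0.18 ± 0.33 and -0.16 ± 0.21. None of these genes passed in limma, with adjusted p of 0.882 or more. Whether probes of one gene also bind transcripts of a close relative was not tested. Neither SCPL34 nor SCPL35 has a family member next to it in that table. For SCPL50 (AT1G15000) the 2 rows read very differently, 8.78 and 4.36 in induced cells and 8.69 and 4.46 in uninduced cells, while both gave small differences, 0.10 ± 0.19 for the row used and -0.10 ± 0.18 for the other.

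Genes around the family's known reactions were read from lists of other enzymes. Of 22 genes of sinapate and phenylpropanoid synthesis 4 were measured under their name, and 0 passed in limma, where 0.961% of all rows did. An unadjusted p under 0.05 was found in 1 of the 4, against 8.48% of all rows and 10.8% of rows at or above the median row. That gene was ALDH2C4 (REF1, AT3G24503), which oxidises sinapaldehyde to sinapate. It averaged 10.11 ± 0.19 in induced and 10.76 ± 0.17 in uninduced cells (SD, n = 3 each), a difference of -0.65 ± 0.15 (SE, limma adjusted p = 0.167). Its groups did not overlap, as in 12.2% of all rows and 17.8% of rows at or above the median row. HCT, a shikimate acyltransferase of the same pathway, differed by -0.11 ± 0.11 (adjusted p = 1.0), and UGT84A3, a glucosyltransferase that forms sinapoylglucose, the donor for SNG1 and SNG2, by 0.05 ± 0.36 (1.0) at an uninduced log2 mean of 1.96. AOP3, of glucosinolate synthesis, was 1 of 3 genes of benzoylated glucosinolates with a row and differed by -0.18 ± 0.11 (0.892). UGT84A3 and AOP3 each held the same value in both replicate 1 arrays, so their differences rest on replicates 2 and 3.

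Of 23 other proteases of the vacuole and the cell exterior 12 were measured, of which 1 rose and 0 fell in limma, against 0.633% of all rows called higher and 0.328% called lower. Genes named SBT plus a number entered the list only if they had a row of their own. GAMMA-VPE (AT4G32940), a vacuolar processing enzyme that cuts and matures vacuolar proteins, averaged 9.90 ± 0.06 in induced cells and 9.04 ± 0.09 in uninduced cells (SD, n = 3 each), a difference of 0.86 ± 0.11 on the log2 scale (SE; adjusted p = 0.0293, and 0.0517 with the replicate block). In that list 2 of 12 genes had an unadjusted p under 0.05, against 8.48% of all rows. In induced cells 9 of the 12 lay higher, against 18551 of 38408 rows, and 3 lower, with a median difference of 0.13, against -0.0070 over all rows. The list, GAMMA-VPE included, was chosen with earlier results of these data known, so these counts do not test the proteases as a group. Both replicate 1 arrays held the same value in BETA-VPE, SBT1.3, SBT4.13, SBT3.5 and SBT3.3, whose differences rest on replicates 2 and 3. The second gene at an unadjusted p under 0.05, named after its values were seen, was APA1, a vacuolar aspartic protease, at 0.30 ± 0.09 (adjusted p = 0.353).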

How the data were processed

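The data are 6 expression arrays, 3 of induced and 3 of uninduced cells. The values are log2 expression as deposited by the authors, and the submitters' processing notes name Affymetrix Expression Console 1.3. Background correction, normalization, summarization and genome build are not given in the sources used here, so nothing was renormalized and coordinates are left out. Column medians lay between 5.80 and 5.95.

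Rows were named from GEO's platform annotation, and RefSeq's gene table (TAIR10.1) supplied locus codes and the order of neighbouring genes. All 32 member genes matched it. The members and lists were chosen with earlier results of these data known. Named in full are the 8 members with the smallest p, the 4 with the largest differences and the 4 with the highest uninduced means (11 genes in all). In the context lists, genes past the threshold are named, or else the 3 with the smallest p.

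All 38408 rows were fitted with limma 3.58.1 in R 4.3.3 (lmFit and eBayes, default settings, no filter, two-sided), with Benjamini-Hochberg adjustment over all rows and a threshold of 0.05. The fit was tested on simulated data. To see whether replicate numbers pair the arrays, deviations from the group means were correlated. The numbers come from the sample titles, and same-numbered arrays gave 0.633, 0.268 and 0.248, all over the threshold of 0.1, while the cross-numbered arrays of replicates 2 and 3 gave 0.244 and 0.260. Pairs that crossed replicate 1 with another number gave -0.411 to -0.38. The check thus set replicate 1 apart but could not show that replicates 2 and 3 pair by number. The value with the replicate number as a block is still printed where it alters a call. Nothing in the labels says that replicates are separate cultures, so p-values cover the spread among these arrays alone, and that spread may be technical. Alternatives covered normalization, low-signal filters, variance priors, array weights, blocks, row choice and leaving out arrays. Plots used matplotlib 3.10.9 (Python 3.11.15).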

Additional observations from a re-analysis of the deposited data

How the results depend on the processing

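The 2 SCPL calls became 1 with quantile normalization, with each array's median subtracted (SCPL34 in both) and with the replicate block (SCPL35), 0 in replicates 2 and 3 alone in limma, and 0 to 1 when each array was left out in turn. Of all rows, these fits called 0.919%, 0.924%, 0.63%, 0.208% and, without each array in turn, 0.125% to 0.435%, against 0.961% as reported. The SCPL calls became 3 over rows at or above the median of mean signal, with array weights and with a block that set the replicate 1 arrays apart (SCPL20 added in each), and with an intensity trend in the variance prior (SCPL48 added). Calls over the rows tested rose in these settings too, to 4.31%, 2.54%, 2.88% and 1.94% in the order given. At an unadjusted p under 0.05 there were 6 SCPL genes (18.8%), against 8.48% of all rows. SCPL34 differed by 1.19 with the replicate block and 1.26 in replicates 2 and 3 alone, without passing, and by 1.14 to 1.26 without each array. SCPL35 differed by -1.20 with quantile normalization, -1.21 with medians subtracted and -1.16 in replicates 2 and 3 alone, without passing, and by -1.28 to -1.08 without each array. Where the calls ended, the differences were nearly unchanged, and the cause was not tested. Besides SCPL34 and GAMMA-VPE, the replicate block changed no call of a gene described here.

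Signs turned for some uncalled genes. With array weights SCPL21 gave -0.013, SCPL22 -0.071, SCPL25 0.0095, SCPL29 -0.014 and SCPL39 -0.056. With medians subtracted SCPL29 gave -0.014 and SCPL39 -0.00425, in replicates 2 and 3 alone SCPL22 gave -0.17 and SCPL29 -0.0060, and the mean of both rows put SCPL50 at -0.00077. Without each array the ranges crossed 0 for SCPL16 (-0.62 to 0.10), SCPL21 (-0.23 to 0.32), SCPL22 (-0.20 to 0.43), SCPL23 (-0.34 to 0.0086), SCPL25 (-0.30 to 0.29), SCPL29 (-0.029 to 0.039), SCPL30 (-0.46 to 0.18), SCPL31 (-0.20 to 0.10), SCPL32 (-0.55 to 0.0035), SCPL38 (-0.036 to 0.21), SCPL39 (-0.14 to 0.13), SCPL41 (-0.25 to 0.15), SCPL43 (-0.14 to 0.45) and SCPL50 (-0.040 to 0.24). The median difference over the family stayed between -0.060 and 0.048 under all alternatives run. The median signal over the family, a different measure, varied among the arrays of a group by 0.17 (SD). The search for members under another symbol or a locus code found none, so that alternative gave no value. Many members had low signal: 15 of 32 lay below the 25th percentile of rows, and the stricter filter left 14.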
